A study of Mus musculus with 7 samples.

Results

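NF-kB is a family of transcription factors built as dimers from the subunits encoded by Nfkb1, Nfkb2, Rel, Rela and Relb, and the IkB proteins bind these dimers and control them. The genes described here are these 5 subunit genes with the inhibitor genes Nfkbia, Nfkbib, Nfkbie, Nfkbiz and Bcl3, and every probe set annotated to 1 of these 10 genes alone was taken, whatever its values. Of the 10 genes, 9 were measured in this way, with 14 of the 22625 probe sets tested, out of 12393 genes named by a probe set. Nfkb1 was not analysed here. Transcripts of these 9 genes showed no difference between Atg16l1 hypomorph and wild type that passed a test, and Rel, which encodes c-Rel, had the largest change, 1.22-fold higher in the hypomorph with an interval that included no change.

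In a resting cell, IkB proteins hold NF-kB dimers in the cytoplasm. In the canonical pathway, signals from Toll-like, interleukin-1 and TNF receptors activate the IKK kinases, the classical inhibitor IkB-alpha is phosphorylated and degraded, and dimers holding RelA or c-Rel enter the nucleus. In the alternative pathway, receptors such as CD40 and the lymphotoxin beta receptor act through the kinase NIK, encoded by Map3k14, and the Nfkb2 product p100 is processed to p52, the usual partner of RelB. In dendritic cells, RelB and c-Rel are known for roles in development, maturation and cytokine production. Much of the control acts on protein stability and location, which arrays of RNA do not measure.

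The cells were CD11c-positive cells enriched magnetically from mouse spleen at day 7 of an allogeneic hematopoietic stem cell transplant, a graft from a genetically different donor. The wild-type group had 4 arrays and the Atg16l1 hypomorph group 3, both labelled with the C57BL/6J background, and a hypomorph keeps part of a gene's function. Age is stated once as 8 weeks, in the design, and once as 9 weeks, in the protocol. The sources used here do not say whether graft, host or both carried the labelled genotype. Nor is it stated that arrays stem from separate animals, and p-values then reflect nothing but the spread between these 7 samples. The question asked was which transcripts differ between dendritic cells of the 2 genotypes.

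Each array gave 1 log2 value per probe set, with array medians from 5.46 to 5.53, and the small number of arrays limits the precision. Atg16l1 read 7.42, 7.33, 7.26 and 7.20 on the wild-type arrays and 6.86, 6.76 and 6.94 on the hypomorph arrays, so the groups did not overlap in the direction of the label. Itgax, which encodes CD11c, lay between 7.98 and 8.33 on the wild-type arrays and between 7.98 and 8.48 on the hypomorph arrays, above the upper quartiles of the arrays (7.58 to 7.65). Transcripts of other cells were present too: the mean log2 level over the measured markers was 8.05 to 8.92 in wild type and 8.32 to 8.66 in the hypomorph for T cells (8 of 10 markers measured), 10.37 to 11.47 and 11.12 to 11.35 for red pulp macrophages (12 of 12), and 11.31 to 11.57 and 10.63 to 11.51 for neutrophils (8 of 10). The lists for basophils and mast cells (6 of 7 measured) and for plasma cells (6 of 7) were the cell type lists whose groups did not overlap, at 6.35 to 7.36 against 5.73 to 5.86 and at 6.51 to 6.77 against 6.90 to 7.20. The largest median change of a cell type list was that of pancreatic acinar markers (9 of 12 measured), -2.10, at 5.29 to 8.40 and 4.53 to 6.28. Every value below is a sum over such a mixture, in which fewer cells of a type and less RNA per cell cannot be told apart.

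Several of these genes are known targets of NF-kB themselves, so the letters before their transcription starts are shown for the members that carry a match to the kB consensus. RefSeq promoter sequences (GRCm38.p6) were at hand for 7 of the 10 genes, namely Nfkb2, Rel, Rela, Nfkbia, Nfkbib, Nfkbie and Bcl3. The kB consensus was searched on both strands in the 250 bases before each annotated start. It occurred in 2382 of 32851 such windows (7.25%), and in 6 of the 9 windows of the members, belonging to 4 genes. Capitals mark the letters covered by a match, and overlapping matches run together as 1 stretch. Nfkb2 (chr19:46304487-46304736, plus strand, the first of 3 annotated starts), Rel (chr11:23770970-23771219, minus strand), Nfkbia (chr12:55492648-55492897, minus strand) and Nfkbie (chr17:45555450-45555699, plus strand) read as follows, each 5′ to 3′ and ending at the base before the start.
Nfkb2: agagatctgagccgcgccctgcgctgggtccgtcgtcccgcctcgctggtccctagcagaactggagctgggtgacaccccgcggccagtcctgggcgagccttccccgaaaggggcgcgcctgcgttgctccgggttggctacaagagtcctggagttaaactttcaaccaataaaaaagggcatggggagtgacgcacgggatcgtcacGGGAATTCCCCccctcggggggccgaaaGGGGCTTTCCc
Rel: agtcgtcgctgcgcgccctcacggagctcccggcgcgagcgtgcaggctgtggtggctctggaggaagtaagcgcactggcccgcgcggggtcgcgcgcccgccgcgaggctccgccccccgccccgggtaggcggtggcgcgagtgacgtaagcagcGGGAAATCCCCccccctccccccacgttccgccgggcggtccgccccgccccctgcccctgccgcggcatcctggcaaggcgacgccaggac
Nfkbia: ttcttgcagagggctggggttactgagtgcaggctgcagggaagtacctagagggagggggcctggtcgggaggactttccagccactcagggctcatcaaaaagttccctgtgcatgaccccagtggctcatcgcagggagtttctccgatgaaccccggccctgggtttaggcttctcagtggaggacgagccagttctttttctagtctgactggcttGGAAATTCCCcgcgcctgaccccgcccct
Nfkbie: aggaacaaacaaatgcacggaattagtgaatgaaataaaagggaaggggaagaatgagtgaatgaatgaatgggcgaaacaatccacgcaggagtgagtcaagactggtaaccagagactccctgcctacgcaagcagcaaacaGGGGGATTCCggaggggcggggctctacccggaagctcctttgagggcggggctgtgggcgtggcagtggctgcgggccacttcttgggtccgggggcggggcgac
The Nfkb2 window held 4 matches in 2 stretches, the palindrome-like GGGAATTCCCC and, closer to the start, GGGGCTTTCC. Rel had 3 overlapping matches in GGGAAATCCCC, Nfkbia 1 in GGAAATTCCC and Nfkbie 1 in GGGGGATTCC. The windows of Rela, Nfkbib and Bcl3 had no match, which says only that these letters are not in those 250 bases. A match is a description of the sequence and not a measured binding site.

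The 2 genotypes were compared by limma across 22625 probe sets, and a Benjamini-Hochberg adjusted p under 0.05 counted as a call. No probe set on the array passed (0%), so none of the 14 of the members did. The Atg16l1 probe set, with a log2 change of -0.45, had a limma adjusted p of 0.462. At an unadjusted p under 0.05, limma gave 1739 of all probe sets (7.69%, made up of 4.35% higher and 3.34% lower), and 0 of the 14. Probe sets whose groups did not overlap made up 5.57% of all (3.07% higher and 2.5% lower), or 5.15% of genes at 1 probe set each, and again 0 of the 14. All 14 95% confidence intervals included a change of 0. Of the 14 changes 10 were positive and 4 negative, beside 50.7% positive over all probe sets. Their median log2 change was 0.03, against 0.0020 over all probe sets. The 14 probe sets share the same 7 samples, and the tally was not tested. The median size of a change without its sign was 0.05 for the members and 0.09 for all probe sets. At 1 probe set a gene, this size was 0.067 for the 9 genes and 0.087 for all 12393. For the 9 genes, each at its probe set of highest mean, 6 intervals lay within a 1.3-fold change in either direction, 8 within 1.5-fold and all 9 within 1.6-fold. The share of all genes within these limits was not counted, so these counts do not set the members apart from other genes.

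**Figure D1:**
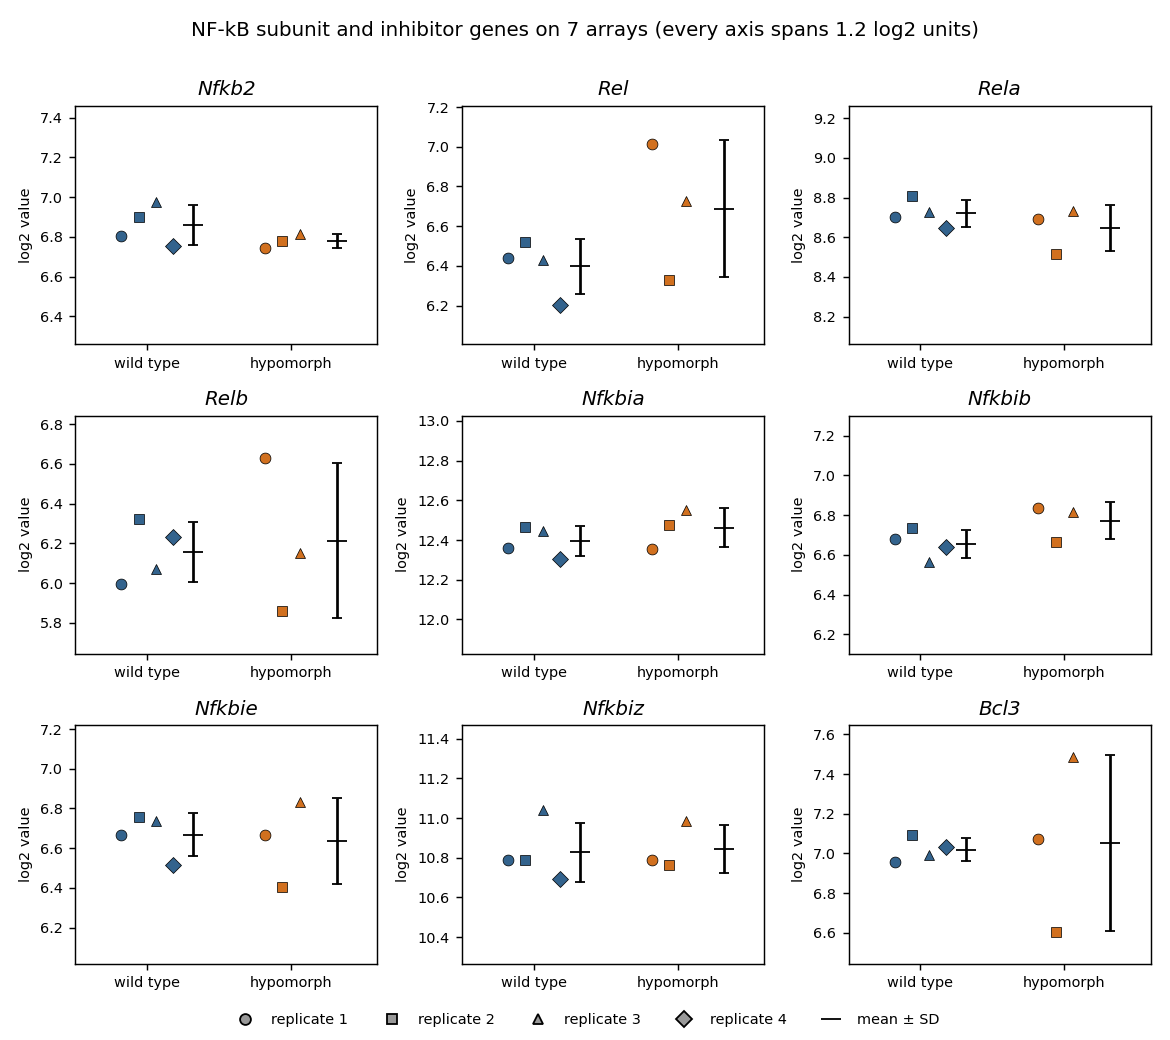
Log2 value (y axis) of each of 9 genes at its probe set of highest mean, on 4 wild-type (blue) and 3 hypomorph (orange) arrays, with marker shape for the replicate number and black bars for mean ± SD; every axis spans the same number of log2 units. The groups overlap for every gene, and the hypomorph arrays of Rel, Relb and Bcl3 lie farther apart (ranges 0.683, 0.773 and 0.886) than the wild-type arrays (0.32, 0.329 and 0.135).

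Among the subunits, Rel had the largest change. Rel encodes c-Rel, a subunit with a transactivation domain that is most abundant in blood cells and is needed for several cytokine genes of dendritic cells and lymphocytes. Its 1 probe set (1420710_at) read 6.44, 6.52, 6.43 and 6.20 on the wild-type arrays and 7.01, 6.33 and 6.73 on the hypomorph arrays. Hypomorph replicates 1 and 3 lay above all wild-type arrays, while hypomorph replicate 2 lay among them. The means were 6.40 ± 0.137 (SD, n = 4) and 6.69 ± 0.343 (SD, n = 3), a log2 change of 0.29 with a standard error of 0.159 and an interval from -0.08 to 0.66. The limma adjusted p was 0.662 (unadjusted p = 0.107), and the exact two-sided permutation p over the 35 splits of the arrays was 0.2, where 0.0286 is the smallest possible. The change moved with single arrays. It was 0.13 when hypomorph replicate 1 was left out, and 0.47 without hypomorph replicate 2, where the unadjusted limma p was 0.00737 and the adjusted p = 0.186.

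On the hypomorph arrays, the Rel values ran beside those of a list of mature dendritic cell markers, a comparison singled out after the values were seen. The mean log2 level of the 11 measured markers (of 12) was 6.21, 6.41, 6.39 and 6.22 on the wild-type arrays and 6.71, 6.25 and 6.56 on the hypomorph arrays, so hypomorph replicates 1 and 3 were the highest arrays for this list too. They were also the highest for the plasma cell list (7.04 and 7.20) and for a list of NF-kB target genes (8.13 and 8.20). In wild type the order differed: replicate 1 was lowest for the mature dendritic cell list, while replicate 4 was lowest for Rel (6.20). Of these 11 markers, 8 had a change above 0, beside 49.2% of all 12393 genes, and the median was 0.12 (log2). An unadjusted limma p under 0.05 was found for 2, Cd200 and Socs2, both higher, beside 7.17% of all genes. Socs2 was without overlap, beside 5.15% of all genes. Cd83 and Ccl22 also stand in the list of NF-kB target genes described below. Levels of the markers differed widely: Cd83 had means of 8.44 ± 0.594 (wild type) and 8.96 ± 0.492 (hypomorph), above the arrays' upper quartiles, while Ccl22 had a wild-type mean of 3.15 ± 0.122 and 3.19 on each hypomorph array, under the arrays' lower quartiles (3.31 to 3.39). Ccr7, the chemokine receptor of migrating mature dendritic cells, read 4.90 ± 0.356 and 4.83 ± 0.368. The erythroid list (7 of 9 markers measured) read 8.17, 8.44, 7.81 and 7.90 on the wild-type arrays and 7.50, 8.56 and 6.10 on the hypomorph arrays, so hypomorph replicate 2, the lowest of the 3 for Rel, was the highest of all 7 arrays for erythroid transcripts. The log2 change of Rel was 0.22 (limma adjusted p = 0.910) with the erythroid level as a covariate, an alternative chosen after seeing the data, and also 0.22 (adjusted p = 0.752) with the acinar level instead. With the red pulp macrophage level it stayed at 0.29 (limma adjusted p = 0.670), and with array weights it was 0.36 (limma adjusted p = 0.588). The B cell list (7 of 8 measured) was at 4.65 to 4.80 on the wild-type arrays and at 3.99 to 4.74 on the hypomorph arrays, lowest on hypomorph replicate 1, where Rel was highest. The part of the mature dendritic cell and B cell transcripts in the Rel values was not tested.

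Rela encodes RelA, the p65 subunit of the most common dimer of the canonical pathway. Its probe set (1419536_a_at) read 8.70, 8.81, 8.73 and 8.64 on the wild-type arrays and 8.69, 8.52 and 8.73 on the hypomorph arrays, with hypomorph replicate 2 below all wild-type arrays and the others within their range. The log2 change of -0.07 had an interval from -0.25 to 0.11 (limma adjusted p = 0.805). In this fit, with no array left out, the interval excludes a level more than 1.08-fold higher. The bound depends on the arrays used. Leaving out single arrays gave changes from -0.116 to -0.0086, the latter without hypomorph replicate 2, and the bound was not computed for those fits. Rela was among the members with the least scatter, with a within-group SD of 0.0890, larger than that of 23.2% of all probe sets.

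Relb encodes RelB, a subunit that dendritic cells need for normal development and maturation. Its probe set (1417856_at) read 5.99, 6.32, 6.07 and 6.23 on the wild-type arrays and 6.63, 5.86 and 6.15 on the hypomorph arrays. Hypomorph replicate 1 was the highest of the 7 arrays and hypomorph replicate 2 the lowest, so the hypomorph group enclosed the whole wild-type range. The log2 change was 0.06 with an interval from -0.36 to 0.47 (limma adjusted p = 0.944), and the direction rested on 1 array: leaving out hypomorph replicate 1 gave -0.15, and leaving out hypomorph replicate 2 gave 0.24.

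Nfkb2 encodes p100, both an inhibitor with ankyrin repeats and the precursor of p52. It had 2 probe sets. The one of highest mean (1429128_x_at, a type whose probes can also match other sequences) read 6.80, 6.90, 6.98 and 6.75 on the wild-type arrays and 6.74, 6.78 and 6.81 on the hypomorph arrays, and the hypomorph arrays lay in the lower part of the wild-type range or just below it. Its log2 change was -0.08, with an interval from -0.25 to 0.09 and a limma adjusted p = 0.777. The other (1425902_a_at) read 6.47, 6.18, 6.28 and 6.09 on the wild-type arrays and 6.42, 6.08 and 6.34 on the hypomorph arrays, a log2 change of 0.02 (-0.25 to 0.30). The 2 probe sets therefore differed in sign, and both intervals included 0.

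**Figure D2:**
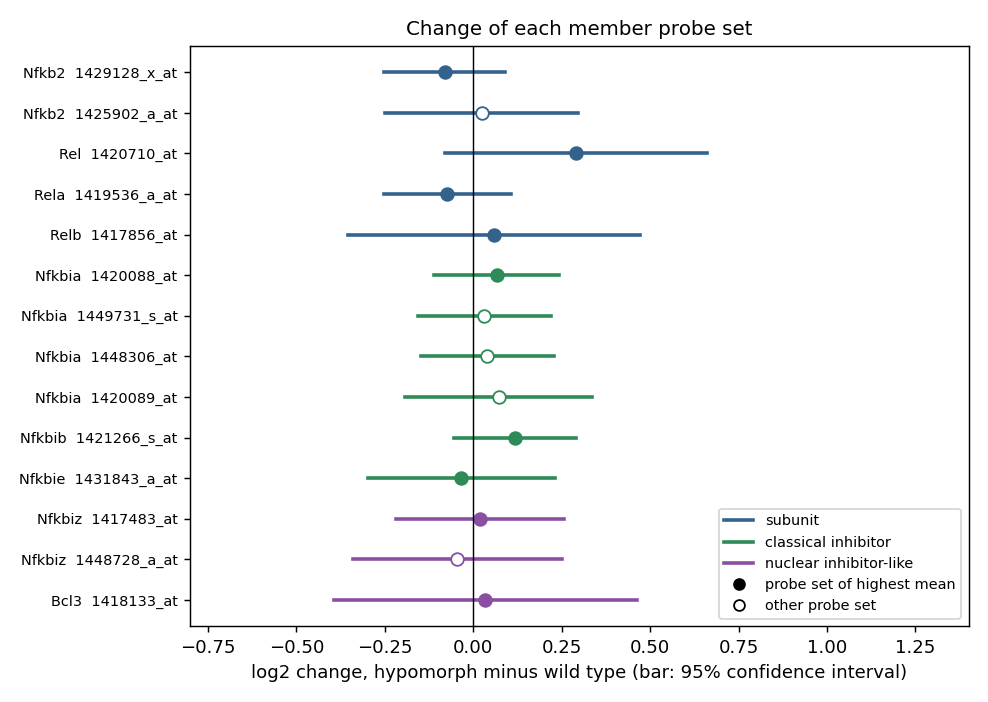
Log2 change, hypomorph minus wild type (x axis), of each of the 14 member probe sets (y axis), with 95% confidence intervals from limma; colours give the role, filled points the probe set of highest mean of a gene and open points its other probe sets. Every interval crosses 0, and the interval of Rel reaches farthest to the right, to 0.66.

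Among the classical inhibitors, which hold dimers in the cytoplasm, Nfkbia was measured by 4 probe sets. Nfkbia encodes IkB-alpha, which is degraded within minutes of a signal and made again by NF-kB itself, so its transcript is a common readout of the pathway. The probe set of highest mean (1420088_at) read 12.36, 12.47, 12.45 and 12.30 on the wild-type arrays and 12.36, 12.48 and 12.55 on the hypomorph arrays, with hypomorph replicates 2 and 3 just above the wild-type range. The means were 12.39 ± 0.0761 (SD, n = 4) and 12.46 ± 0.0983 (SD, n = 3), and the log2 change was 0.07 with an interval from -0.11 to 0.24 (limma adjusted p = 0.824). In fold terms this interval runs from 0.927 to 1.18. The other 3 probe sets (1449731_s_at, 1448306_at and 1420089_at) had changes of 0.03, 0.04 and 0.07, so all 4 were slightly positive and none of the 4 intervals excluded 0. These probe sets measure the same gene in the same 7 samples and do not count as separate evidence. They agreed on hypomorph replicate 3 as the highest of the 7 arrays, at 12.55, 11.84, 11.28 and 7.36.

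Nfkbib encodes IkB-beta, a second cytoplasmic inhibitor. Its probe set (1421266_s_at) read 6.68, 6.73, 6.56 and 6.64 on the wild-type arrays and 6.84, 6.67 and 6.81 on the hypomorph arrays. Hypomorph replicates 1 and 3 lay above the wild-type arrays, and all 3 lay above the wild-type mean of 6.65. The log2 change of 0.12, the second largest among the 9 genes, had an interval from -0.05 to 0.29 (limma adjusted p = 0.686, exact two-sided permutation p = 0.171).

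Nfkbie encodes IkB-epsilon, which like IkB-alpha is induced by NF-kB. Its probe set (1431843_a_at) read 6.67, 6.75, 6.74 and 6.51 on the wild-type arrays and 6.67, 6.40 and 6.83 on the hypomorph arrays, with hypomorph replicate 2 lowest and replicate 3 highest of the 7 arrays. The log2 change was -0.03 with an interval from -0.30 to 0.23 (limma adjusted p = 0.947), and it was 0.08 without hypomorph replicate 2. The 3 classical inhibitors had a median log2 change of 0.07 and the 4 measured subunits one of -0.0077, against -0.0024 over the 12393 genes at their probe sets of highest mean.

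Nfkbiz and Bcl3 encode IkB-zeta and BCL-3, proteins of the IkB family that act in the nucleus, where they bind p50 or p52 and modulate transcription. Nfkbiz at its probe set of highest mean (1417483_at) read 10.79, 10.79, 11.04 and 10.69 on the wild-type arrays and 10.79, 10.77 and 10.99 on the hypomorph arrays. The high arrays were replicate 3 of each group, and the hypomorph arrays lay within the wild-type range. The log2 change was 0.02 with an interval from -0.22 to 0.26 (limma adjusted p = 0.968). The other probe set (1448728_a_at) gave -0.04 (-0.34 to 0.25), with replicate 3 highest in each group there too (9.14 and 9.21).

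Bcl3 had the largest spread between hypomorph arrays of the 9 genes. Its probe set (1418133_at) read 6.96, 7.09, 6.99 and 7.03 on the wild-type arrays and 7.07, 6.60 and 7.49 on the hypomorph arrays. The wild-type arrays lay within 0.135 of each other, and hypomorph replicates 2 and 3 lay below and above all of them, 0.886 apart. The means of 7.02 ± 0.0578 (SD, n = 4) and 7.05 ± 0.443 (SD, n = 3) gave a log2 change of 0.03 with an interval from -0.39 to 0.46 (limma adjusted p = 0.969). The sign depended on single arrays, being -0.18 when hypomorph replicate 3 was left out and 0.26 when hypomorph replicate 2 was. Erythroid transcripts ran the opposite way on these hypomorph arrays, at 8.56 on replicate 2 and 6.10 on replicate 3. In wild type, though, replicate 2 was the highest both for Bcl3 (7.09) and for the erythroid list (8.44). With the erythroid level as a covariate, chosen after seeing the data, the change of Bcl3 was -0.19 (limma adjusted p = 0.839). With the acinar level as a covariate it moved the other way, to 0.23 (limma adjusted p = 0.754).

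**Figure D3:**
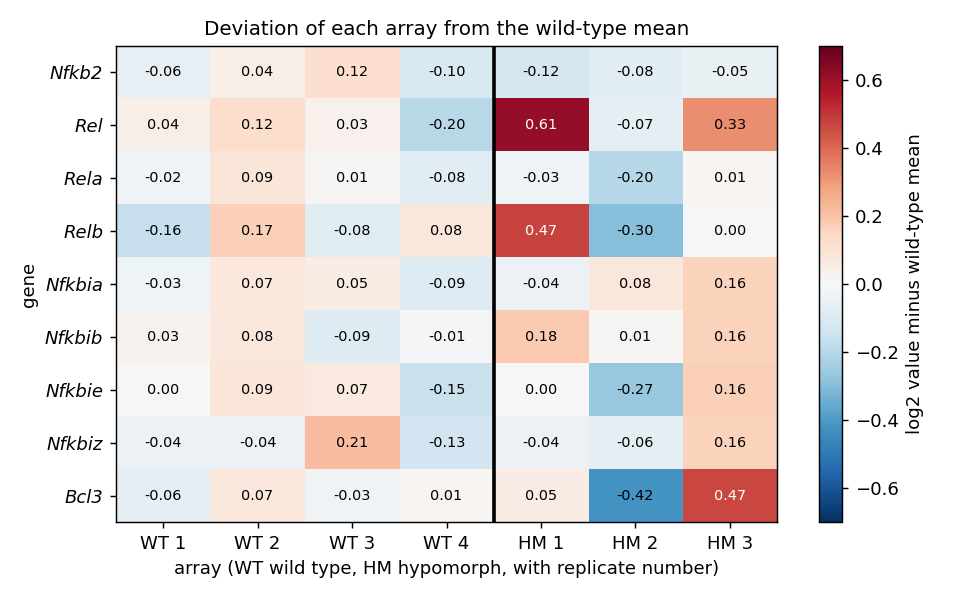
Log2 value minus the wild-type mean (colour and printed number) for 9 genes (rows) on 4 wild-type (WT) and 3 hypomorph (HM) arrays (columns), with the replicate number. Hypomorph replicate 2 is negative for 7 of the 9 genes and hypomorph replicate 3 positive for 7, while replicate 1 stands out for Rel and Relb.

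Single arrays were high or low for several members at once. Hypomorph replicate 2 was the lowest of the 3 hypomorph arrays for 7 of the 9 genes and the lowest of all 7 arrays for 4, with a median deviation from the wild-type mean of -0.08; over all 12393 genes it was the lowest of the 3 for 36.3%. Hypomorph replicate 3 was the highest hypomorph array for 6 genes, with a median deviation of 0.16, against 34.4% of all genes, and hypomorph replicate 1 for the other 3 (Rel, Relb and Nfkbib). These counts were not tested. In wild type, replicate 2 was the highest for 7 genes and replicate 4 the lowest for 6, with median deviations of 0.08 and -0.09. Over all genes, wild-type replicate 2 was the highest of its group for 26.3% and replicate 4 the lowest for 25.6%. The SD was larger in the hypomorph than in wild type for 7 of the 9 genes, and for 52.1% of all 12393 genes. With 3 and 4 arrays, and with genes that share the same RNA samples, the difference in spread was not tested.

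The levels of known partners were set against each other across the 7 arrays, for 2 pairs. Nfkb2 and Relb, whose products form the p52 and RelB dimer, gave Pearson r = -0.211 (exact permutation p = 0.634, adjusted p = 0.756 over the 2 pairs) and Spearman rho = -0.25 (exact permutation p = 0.595, adjusted p = 0.595). Without the 2 arrays farthest from the median of Nfkb2, r was -0.643, and with the other Nfkb2 probe set it was 0.274. Rela and Nfkbia, a subunit and its inhibitor, gave r = 0.153 (exact permutation p = 0.756, adjusted p = 0.756) and rho = 0.393 (exact permutation p = 0.396, adjusted p = 0.595), and r = 0.879 without the 2 arrays farthest from the median of Rela, 1 of which, hypomorph replicate 2, moved r to 0.720 when left out alone. Neither pair showed a relation that passed the threshold over 7 arrays.

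Genes around the members were drawn from 3 lists: 24 genes of the IKK complex and its adaptors, 19 receptors that signal to NF-kB, and 33 target genes. None of their measured members passed the adjusted threshold. At an unadjusted p under 0.05, 7.17% of all 12393 genes were found at their probe sets of highest mean, 3.57% higher and 3.59% lower. A positive change was found for 49.2% of all 12393 genes, whose median log2 change was -0.0024. Genes of a list share the same 7 samples, and the tallies of signs below were not tested.

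Of the kinases and adaptors between receptor and IkB, 18 of 24 were measured, 10 with a positive and 8 with a negative change and a median log2 change of 0.0071, and 0 had an unadjusted limma p under 0.05. The sign of this median was not stable, running from -0.030 to 0.044 when single arrays were left out, with negative values for wild-type replicates 2 and 4 and hypomorph replicates 2 and 3. The 4 with the smallest p were Map3k14, which encodes NIK, the kinase of the alternative pathway, Tab3, a subunit of the TAK1 kinase complex, Myd88, the adaptor of Toll-like and interleukin-1 receptors, and Ikbkb, the kinase IKK-beta. Map3k14 had means of 4.91 ± 0.12 (wild type) and 5.11 ± 0.0938 (hypomorph), a log2 change of 0.20, and its other probe set gave 0.09. The changes of Tab3, Myd88 and Ikbkb were -0.29, -0.14 and 0.13, each with an interval that included 0.

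Of the receptors, 17 of 19 were measured, 12 positive and 5 negative with a median log2 change of 0.06, and 1 had an unadjusted limma p under 0.05. This was Il1r1, the interleukin-1 receptor. It read 5.20, 5.24, 6.03 and 5.31 on the wild-type arrays and 6.27, 5.96 and 6.17 on the hypomorph arrays, so wild-type replicate 3 lay among the hypomorph arrays. The log2 change was 0.68 with an interval from 0.20 to 1.17 (limma adjusted p = 0.644). Ltbr, the lymphotoxin beta receptor, and Tnfrsf1a, the main TNF receptor, had changes of 0.40 (-0.03 to 0.83) and 0.24 (-0.02 to 0.50), and Tnfrsf13c, the BAFF receptor of B cells, had -0.44 (-0.92 to 0.04), beside the B cell list given above. The receptors' tally turned to 6 of 17 positive without wild-type replicate 1 (median -0.04) and with the red pulp macrophage level as a covariate (median -0.036). Red pulp macrophage markers had a positive change for 12 of 12. Their mean levels overlapped, at 10.37 to 11.47 in wild type and 11.12 to 11.35 in the hypomorph. Their part in the receptor changes was not tested. For the receptors' median, leaving out wild-type replicate 2 or 4 gave 0.12 or 0.16. Leaving out hypomorph replicate 1 or 2 gave 0.02 or 0.18.

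Of the target genes, 29 of 33 were measured, 20 positive and 9 negative with a median log2 change of 0.09, and 4 had an unadjusted limma p under 0.05, of which 3 were higher and 1 lower. Tnfaip3, the gene of the NF-kB inhibitor A20, read 6.37, 6.23, 6.72 and 6.68 on the wild-type arrays and 7.24, 7.01 and 6.93 on the hypomorph arrays, without overlap. Gadd45b, a stress-induced gene, had a change of 0.46 (0.08 to 0.83) at its probe set of highest mean, and 0.29 and 0.34 at the others. Vcam1, an adhesion molecule that red pulp macrophages also express, had 0.25, with an interval whose lower bound was 0.00067. Its other probe sets gave 0.32 (-0.08 to 0.72) and 0.40 (-0.15 to 0.96), with intervals that included 0. Ier3, an immediate early gene, had -0.30 (-0.55 to -0.05). Leaving out hypomorph replicate 1, 2 or 3 gave a median of 0.03, 0.21 or 0.04 for this list, and leaving out wild-type replicate 4 gave 0.13. The adjusted p in limma was 0.644 for each of these 4 genes.

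**Figure D4:**
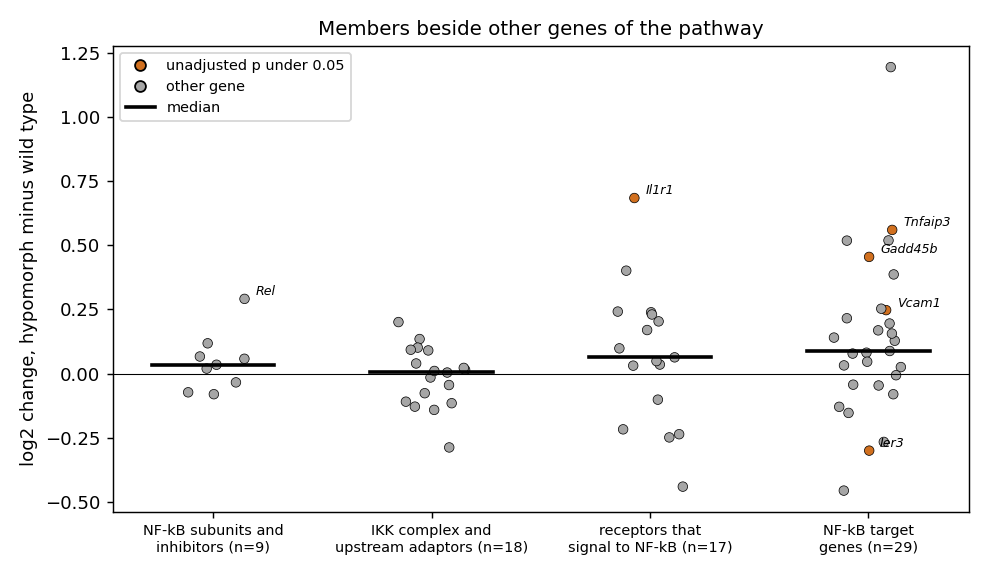
Log2 change, hypomorph minus wild type (y axis), of the 9 NF-kB subunit and inhibitor genes and of the measured genes of the 3 other lists (x axis, n in brackets), each gene at its probe set of highest mean; bars are medians and orange points genes with an unadjusted limma p under 0.05. The 9 members lie between -0.08 and 0.29 with a median of 0.03, and the 29 target genes have a median of 0.09.

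Side by side, Tnfaip3 was 1.47-fold higher in the hypomorph (1.17 to 1.85), while Nfkbia, another feedback inhibitor that NF-kB induces, was 1.05-fold higher (0.927 to 1.18). Both intervals come from the same 7 arrays, and the difference between the 2 genes was not tested. The array order differed as well, since Tnfaip3 was highest on hypomorph replicate 1 and Nfkbia on hypomorph replicate 3.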

How the data were processed

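Total RNA (100 ng) of 7 samples was labelled and hybridized to Affymetrix Mouse430A arrays, per the labels. The deposited table gives each probe set a log2 value on every array, made with Affymetrix Power Tools per the submitters' processing notes; its version, the summary method, background correction and normalization are not stated in the sources used, and nearly equal quartiles show that arrays had been normalized to each other. Of 22690 probe sets, 64 controls and 1 without values were left out. Gene names came from the array's annotation, updated by Entrez identifier in a RefSeq table (GRCm38.p6): 20379 probe sets named 1 gene (20350 found in the table), 691 several and 1555 none. Promoters are RefSeq's.

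The deposited log2 values were tested with limma 3.58.1 in R 4.3.3 (2 group means, no block) and by exact permutation in Python 3.11.15. A gene is given by its probe set of highest mean, with its others beside it. On simulated data (5 runs, 200 of 22625 probe sets changed), limma recovered 38.8% of log2 changes of 0.5, 81.4% of 1 and 97.6% of 2. Noise was drawn independently for each probe set, without the differences between arrays that many transcripts share. These percentages therefore need not hold for the real arrays. The members and lists were chosen with earlier results of these data known. The rule named all members, Atg16l1, Tnfaip3 and, from each pathway list, the 4 genes with the smallest p. Replicate numbers were not used as pairs. A planned correlation of Rel with Nfkb1 was not run. Other normalizations, variance models, weights, covariates and left-out arrays were tried.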

Additional observations from a re-analysis of the deposited data

Results flagged for a closer look

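Among the 14 probe sets of these genes, the highest or the lowest of the 4 wild-type arrays stood apart from the others by more than Dixon's 95% critical value in 2 cases, and chance flags about 1 in 20 groups. Both concern wild-type replicate 3. For Nfkbia at 1420089_at this array read 6.92, below the other wild-type arrays at 7.05 to 7.07 (gap over range 0.894). For Nfkbiz at 1448728_a_at it read 9.14, above the others at 8.88 to 8.92 (gap over range 0.855). Groups of 3 are not tested in this way, so the spread of the hypomorph arrays for Rel, Relb and Bcl3 is given above as values.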

How the results depend on the processing

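No probe set of these genes passed the adjusted limma threshold under any of the 17 alternatives run on probe sets (0 in each), and 1, that of Rel, had an unadjusted p under 0.05 under 1 of them, without hypomorph replicate 2. Over the whole array, 5 probe sets passed with array medians subtracted, 5 with trend and robust settings, 5 among probe sets above the median level and 3 with array weights, and 0 to 2 without single arrays (1 when wild-type replicate 3 or hypomorph replicate 1 was left out, 2 when hypomorph replicate 2 was). Unadjusted counts were 984 higher and 755 lower out of 22625 probe sets. Above the median level they were 559 and 498, but out of 11312 probe sets tested there, so these smaller counts do not show a smaller share. With a covariate for acinar transcripts, over all probe sets again, they were 1209 and 1285. Leaving out hypomorph replicate 1 gave 598 and 497, hypomorph replicate 2 gave 1411 and 1578, and wild-type replicate 2 gave 730 and 431. The changes of Rel, Rela, Nfkb2, Nfkbia and Nfkbib kept their sign under all 18 alternatives. Nfkbiz turned to -0.0075 with array weights, -0.025 with the replicate block, -0.013 as a mean over probe sets and -0.051 with the erythroid level as a covariate (chosen after seeing the data), Bcl3 to -0.19 with the last and to -0.0024 with the red pulp macrophage level, and Relb to -0.036 with the latter. Without single arrays Nfkbiz ran from -0.050 to 0.091, Bcl3 from -0.18 to 0.26, Relb from -0.15 to 0.24 and Nfkbie from -0.13 to 0.081. The target gene median was 0.13 with the replicate block, 0.20 with the acinar covariate and 0.13 as a mean over probe sets, and ran from 0.032 to 0.21 without single arrays. The receptor median was 0.30 with the acinar covariate, -0.036 (6 of 17 positive) with red pulp macrophages and 0.0040 (9 of 17) with erythroid transcripts. The kinase and adaptor median of 0.0071 turned to -0.026 with the replicate block, -0.023 with the erythroid covariate and -0.0083 as a mean over probe sets. The correlation of Nfkb2 with Relb was 0.14 as a mean over probe sets and ran from -0.43 to 0.22 without single arrays. The cause of these shifts was not tested. Same-numbered arrays correlated in their deviations at 0.102, 0.0977 and 0.339, and differently numbered ones at -0.256 to 0.207. So few values cannot decide whether the arrays were paired. The replicate block left 0 calls among these genes. The group means of all 14 probe sets lay above the array medians. With 3 and 4 arrays the intervals stay wide.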

Other observations

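Ikbkb, which encodes the kinase that marks IkB-alpha for degradation, had 4 probe sets, and all 4 had a positive change. The one of highest mean, with a wild-type mean of 8.97, had 0.13. The others, singled out after the values were seen, had 0.33 (95% confidence interval 0.08 to 0.58, groups without overlap), 0.20 and 0.36, with limma adjusted p of 0.644 for each. Their wild-type means were lower, at 5.51, 5.01 and 4.31, near or below the array medians. Groups did not overlap for 5.57% of all probe sets. The 4 probe sets measure the same gene in the same 7 samples and do not count as separate evidence. The probe set without overlap (1432275_at) read 5.64, 5.37, 5.61 and 5.44 on the wild-type arrays and 5.89, 5.98 and 5.65 on the hypomorph arrays.

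Irf4, a transcription factor gene that c-Rel is known to induce in lymphocytes, stood in the lists for CD11b lineage dendritic cells and for plasma cells, and was singled out after its values were seen. Its probe set of highest mean (1421173_at) read 5.94, 6.04, 5.79 and 5.86 on the wild-type arrays and 6.27, 6.12 and 6.33 on the hypomorph arrays, without overlap. The log2 change was 0.33 (95% confidence interval 0.13 to 0.54, limma adjusted p = 0.644), and the other probe set gave 0.11 (-0.14 to 0.37). The plasma cell list as a whole, which includes Irf4, was higher without overlap. In the CD11b lineage list all 5 measured genes, Irf4 among them, had a positive change, beside 49.2% of all genes. The mean levels of that list overlapped, at 6.75 to 7.12 in wild type and 7.00 to 7.45 in the hypomorph. The part of either cell type in the Irf4 values was not tested.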
